A study of Homo sapiens with 9 samples.

Results

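Purine, pyrimidine and folate enzymes were described here through 34 listed genes of 64253 gene identifiers counted in the RNA of IMR90 cells. They were taken by symbol from the authors' gene table and joined to the count files by gene identifier, keeping the identifier with the most counts. The list holds 11 genes of purine synthesis, 7 of pyrimidine synthesis, 6 nucleotide kinases, 5 folate enzymes and 5 genes of salvage and breakdown. IMR90 is a human fetal lung fibroblast line with a limited number of divisions. There were 9 libraries, 3 in each of 3 groups. All cells were kept at 2% oxygen, used at population doubling 30, given a lentiviral infection and another 24 hours later, and held in 3 ug/mL puromycin for 7 days. The control cells carried only pLKO.1 vector, which the sample labels call empty and the treatment protocol calls pLKO.1 GFP. The shRRM2 cells carried a hairpin against RRM2, and senescence through loss of dNTPs is what the design text names for them. The shRRM2/shp16 cells carried that hairpin and one against p16, and the design text describes them as a bypass of this senescence. A group with the p16 hairpin and no RRM2 hairpin was not analysed here. The libraries are named a, b and c within a group. The labels do not say whether they came from separate cultures, so the p-values measure only the spread between these samples.

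Cells build purine rings stepwise on activated ribose, beginning with PPAT and ending with inosine monophosphate, which is then turned into AMP or GMP. The pyrimidine ring is built by CAD, DHODH and UMPS and turned into CTP and, through thymidylate, into dTTP. Folate enzymes such as MTHFD1 and SHMT2 carry the carbon units used by both routes, kinases add the further phosphates, and salvage enzymes such as HPRT1 recover ready-made bases. These routes feed RNA and DNA synthesis and are known to be more active in dividing cells than in resting ones.

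PPAT and PAICS, which catalyse different steps of purine synthesis, are transcribed away from each other from start sites that lie 125 bases apart in GENCODE release 29. The stretch between them is shown because both genes were lower in shRRM2 cells than in control, and only PPAT of the pair passed the test in the double-hairpin cells against shRRM2. It is written on the strand of PPAT, from RefSeq on GRCh38.p14, with the GC box GGGCGG or its reverse complement in capitals.
PPAT-PAICS chr4:56435616-56435740 - strand: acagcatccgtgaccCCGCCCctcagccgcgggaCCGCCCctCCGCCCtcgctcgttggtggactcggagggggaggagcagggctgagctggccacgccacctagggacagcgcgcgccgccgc
The GC box occurs 3 times in it, and 76.0% of its bases are G or C.

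The E-box CACGTG, the core motif of MYC-family and related factors, was searched on both strands in the RefSeq windows from 250 bases before to 50 bases after each start. Windows were found for 30 of the 33 members looked up, and ADSL, IMPDH2 and SHMT2 had none in the table. The 6 sites below are shown in capitals with their flanks, because they cover members of the purine, pyrimidine, folate and kinase steps that moved in both directions.
PPAT chr4:56435780-56435809 - strand: aacggagatttcCACGTGcagcaaatacag
ATIC chr2:215312001-215312030 + strand: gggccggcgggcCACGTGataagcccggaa
DHODH chr16:72008573-72008602 + strand: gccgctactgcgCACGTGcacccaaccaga
MTHFD1 chr14:64388326-64388355 + strand: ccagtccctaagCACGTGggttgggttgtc
MTHFD1L chr6:150866320-150866349 + strand: cacgcccggctcCACGTGcgcagccggccg
AK4 chr1:65147447-65147476 + strand: ggtcgcagggagCACGTGggccaggcaggc
The PPAT site begins at position -182 from the PPAT start and is also position 41 of a PAICS start, so it stands in both windows. An E-box was present in 9 of 30 members (30.0%) and in 10.9% of the 15843 coding genes with a window, where members had 1.63 windows each and coding genes 1.40. The 9 members were PPAT, PAICS, ATIC, DHODH, NME1, AK4, MTHFD1, MTHFD1L and UCKL1. Of these 9, 7 were lower in shRRM2 than in control, and of the 21 without an E-box 14 were lower. The NRF1 core GCGCATGC was found in CTPS1 and MTHFD1 (6.67% of members, 4.89% of coding genes), and the C/EBP-ATF element TGATGNAA in DCTD and MTHFD1L (6.67% and 3.60%). Of the E2F forms TTTGGCGC, TTTCGCGC and TTTCCCGC, only the first was found, in GART (3.33% of members for any form, 4.53% of coding genes). The GC box, searched after the PPAT window had been read, was in 83.3% of members and 64.3% of coding genes. A match is a stretch of letters and was not tested as a binding site.

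Gene counts per library ranged from 15770895 to 24873291. RRM2 was at 481, 491 and 484 CPM in control, 60.0, 63.2 and 63.2 CPM in shRRM2 and 181, 175 and 176 CPM in shRRM2/shp16, where CPM is the count scaled to a fixed library total with TMM factors. CDKN2A, which encodes p16 and ARF from a shared gene model, was at 5.95, 6.15 and 5.96 CPM, 6.79, 6.75 and 5.97 CPM and 4.33, 3.93 and 4.57 CPM in the same order. RRM2 was thus lowest in the shRRM2 libraries and CDKN2A in the shRRM2/shp16 libraries, with no overlap with the other groups in either case. Of uniquely aligned reads, the share tallied as assigned to no counted feature was 17.6% to 18.9% in control, 27.7% to 28.8% in shRRM2 and 23.5% to 24.4% in shRRM2/shp16. The tally does not tell whether these reads lay inside or outside genes. The part of this difference in the results was not tested. The summed CPM of 8 fibroblast markers was 26838 to 27701, 26256 to 27053 and 22096 to 22696. Within that sum single markers moved in both directions, from -1.32 (VIM) to 1.08 (COL3A1) on the log2 scale in shRRM2/shp16 against control. The 4 epithelial markers summed to at most 2.15, with KRT5 and SFTPC at 0 in all libraries, 4 blood markers to at most 3.27 and 4 endothelial markers to at most 5.38. The proliferation genes MKI67, MCM2 and CCNA2 were also lower in shRRM2, at log2 fold changes of -1.69, -1.0 and -1.78 against control, and stood at 0.27, -0.32 and 0.43 in shRRM2/shp16 against shRRM2. In shRRM2/shp16 against control these genes remained lower, at -1.41, -1.32 and -1.35. Their part in the results was not tested.

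Most of the nucleotide and folate enzyme genes were lower after RRM2 knockdown. Some were higher and others lower in shRRM2/shp16 than in shRRM2. RRM2 itself was 2.85-fold higher in shRRM2/shp16 than in shRRM2. The p16 hairpin and the weaker loss of RRM2 can therefore not be told apart in that comparison. Of the 34 members, 33 passed the filter on low counts, and NME2, a nucleoside diphosphate kinase, did not. In shRRM2 against control, 24 members were lower, 6 were higher and 3 did not pass the edgeR threshold of 0.05 on the adjusted p. That is 90.9% of the tested members, against 60.9% of all 16561 genes tested. For the lower direction it is 72.7% of members against 31.8% of all genes, and for the higher 18.2% against 29.0%. The libraries of the 2 groups did not overlap in CPM for 30 members, where 63.6% of all genes did not. The median log2 fold change of the members was -0.43, and that of all genes was 0.0023. In bulk RNA, fewer cells with a transcript and less of it in each cell cannot be told apart.

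In shRRM2/shp16 against shRRM2, 12 members were higher, 10 were lower and 11 did not pass, so 66.7% were called against 61.1% of all genes. By direction, 36.4% of members were higher against 31.9% of all genes, and 30.3% lower against 29.1%. These 2 groups did not overlap for 24 members, where 64.7% of all genes did not. The median of the members was 0.032 and that of all genes 0.011 on the log2 scale. In shRRM2/shp16 against control, 26 members were lower, 3 were higher and 4 did not pass, with a median of -0.47 against 0.015 for all genes. The share called was 87.9% of members and 62.4% of all genes, and the share lower was 78.8% of members and 32.4% of all genes. The share higher was 9.09% of members and 30.0% of all genes. No overlap was seen for 28 members and for 66.2% of all genes. The 3 comparisons share libraries with each other, so their values are given side by side and not as separate evidence. Fits of the deposited RPKM values with limma, in place of counts, ended some calls that are given below from the counts. They were those of AK1 and CTPS2 in shRRM2 against control (adjusted p 0.0792 to 0.223), of PFAS, AK1 and DCTD in shRRM2/shp16 against shRRM2 (0.0766 to 0.135), and of PPAT, ATIC, CMPK1, DHODH, MTHFD1L and APRT in shRRM2/shp16 against control (0.0522 to 0.578). The RPKM column of shRRM2 replicate c did not match its counts. In the limma fit without that column, AK1, PFAS, DCTD, PPAT, ATIC and CMPK1 kept these calls. Those of CTPS2, DHODH, MTHFD1L and APRT were still lost.

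**Figure D1:**
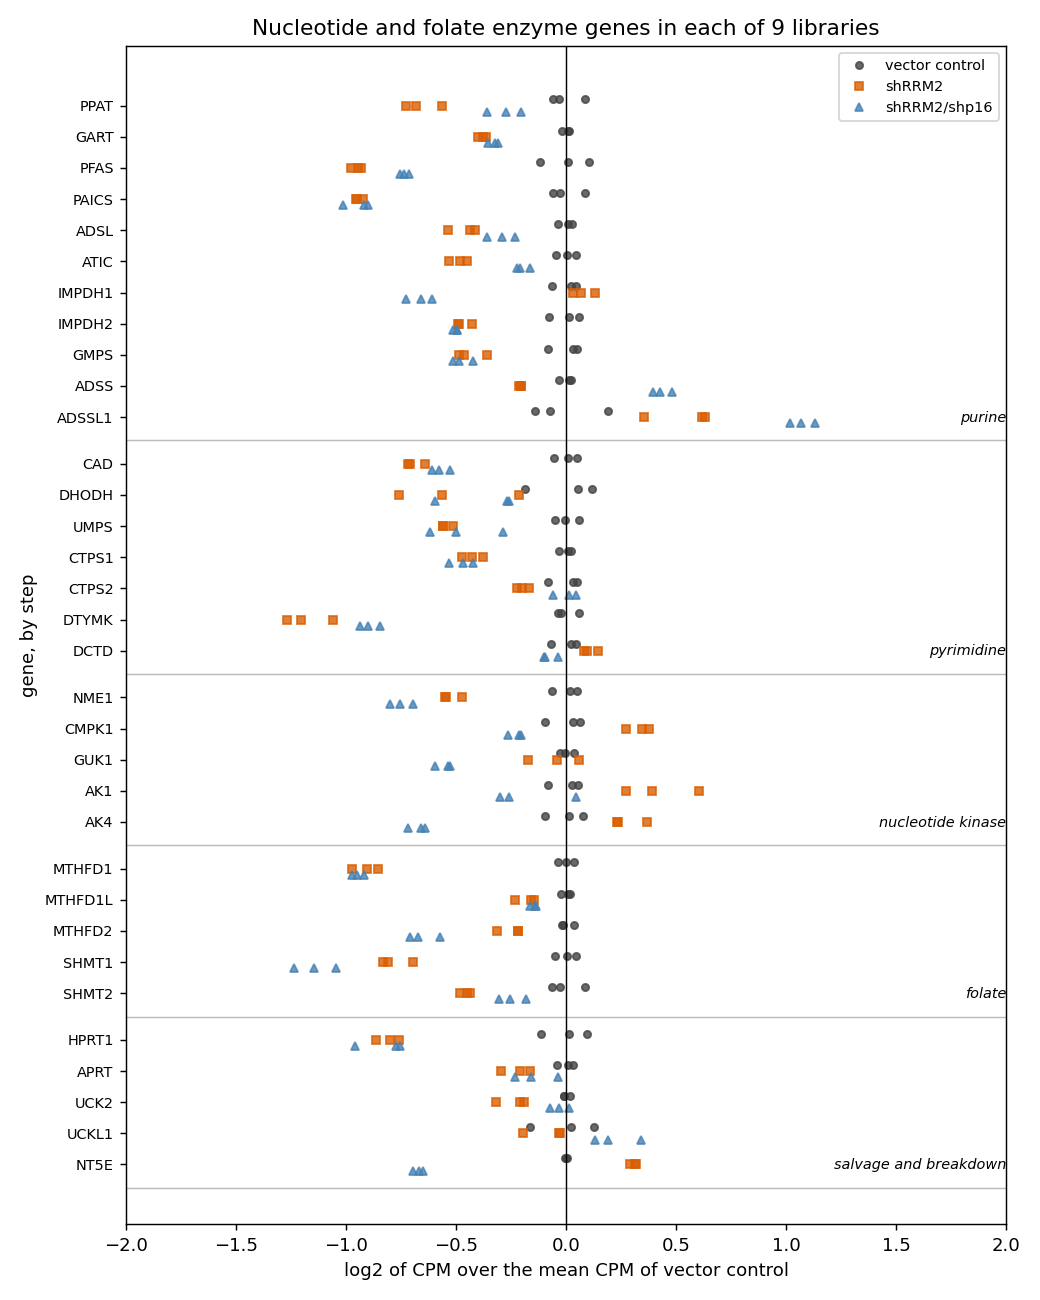
Level of 33 enzyme genes in each of the 9 libraries, as log2 of CPM over the mean CPM of vector control (x axis), with genes on the y axis in order of step. Circles are control, squares shRRM2 and triangles shRRM2/shp16 libraries. Most squares and triangles lie left of 0, while CMPK1, AK1, AK4 and NT5E have squares right of 0 and triangles left of them.

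The genes of the steps that build the purine ring were all lower in shRRM2 than in control, by unequal amounts. PPAT, which commits ribose phosphate to the pathway, was at 29.1, 29.7 and 32.2 CPM in control, 18.3, 18.9 and 20.5 CPM in shRRM2 and 23.7, 25.1 and 26.3 CPM in shRRM2/shp16. All shRRM2 libraries were below all others and the shRRM2/shp16 libraries lay between the other groups. With ± for the standard error (SE), the log2 fold change of PPAT was -0.65 ± 0.07 (SE, adjusted p = 2.7e-11) in shRRM2 against control, 0.37 ± 0.07 (SE, adjusted p = 9.3e-06) in shRRM2/shp16 against shRRM2 and -0.27 ± 0.06 (SE, adjusted p = 0.00019) in shRRM2/shp16 against control. PAICS, whose protein carries a carboxylase and a synthetase of the middle of the pathway, was at 190.4, 176 and 172 CPM in control, 94.5, 92.9 and 92.3 CPM in shRRM2 and 94.7, 96.0 and 88.6 CPM in shRRM2/shp16. Both hairpin groups were far below control and overlapped each other. PAICS had a log2 fold change of -0.95 ± 0.04 (SE, adjusted p = 1.7e-24) in shRRM2 against control, and between the hairpin groups it differed by -0.001 ± 0.04 (SE, adjusted p = 0.99). That is a fall to 51.9% of the control level with RRM2 knockdown and 51.8% with both hairpins.

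PFAS, which makes the amidine intermediate, was at 64.4, 60.3 and 55.2 CPM in control, 31.4, 31.1 and 30.5 CPM in shRRM2 and 35.5, 36.6 and 36.0 CPM in shRRM2/shp16. The groups did not overlap, with the lowest values in shRRM2. PFAS had a log2 fold change of -0.96 ± 0.05 (SE, adjusted p = 1.4e-19) in shRRM2 against control and of 0.22 ± 0.06 (SE, adjusted p = 0.0013) in shRRM2/shp16 against shRRM2. GART, a protein of several activities in the early pathway, ranged over 58.3 to 59.7 CPM in control, 44.9 to 46.0 in shRRM2 and 46.3 to 47.7 in shRRM2/shp16. It was lower than control in both hairpin groups, at -0.38 ± 0.05 and -0.33 ± 0.04 on the log2 scale, and the difference between them did not pass (log2 fold change 0.05 ± 0.05, adjusted p = 0.37). ADSL, which acts in ring synthesis and again on the way to AMP, had log2 fold changes of -0.46 ± 0.05 in shRRM2 against control and 0.17 ± 0.05 between the hairpin groups. ATIC, which closes the ring, was at 92.0, 89.0 and 94.7 CPM in control, 63.6, 65.8 and 67.3 CPM in shRRM2 and 82.0, 78.7 and 79.3 CPM in shRRM2/shp16. Its shRRM2/shp16 libraries lay between the other groups, at 0.29 ± 0.04 (SE, adjusted p = 1.1e-07) above shRRM2 and -0.20 ± 0.04 (SE, adjusted p = 2.5e-05) from control.

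Beyond inosine monophosphate, the 3 genes of the GMP branch were lower with both hairpins than in control, and ADSS and ADSSL1 of the AMP branch were higher. ADSL, which also acts on the way to AMP, was lower in that comparison, with a log2 fold change of -0.29 ± 0.05 (SE, adjusted p = 1.1e-06). The inosine monophosphate dehydrogenases catalyse the rate-limiting step towards GMP. IMPDH1 was at 69.6, 68.5 and 64.5 CPM in control, 69.0, 74.1 and 70.8 CPM in shRRM2 and 44.2, 40.8 and 42.8 CPM in shRRM2/shp16. Control and shRRM2 overlapped and every shRRM2/shp16 library was below both. IMPDH1 differed by 0.076 ± 0.04 (SE, adjusted p = 0.14) in shRRM2 against control, which did not pass, and fell in shRRM2/shp16 against shRRM2 at -0.74 ± 0.05 (SE, adjusted p = 6.7e-18). The first of these passed under a filter of at least 10 counts in every sample and with limma on RPKM without the column of shRRM2 replicate c (adjusted p 0.0319 to 0.0491).

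IMPDH2, the other dehydrogenase, was at 129.7, 118 and 126 CPM in control, 88.7, 92.5 and 88.8 CPM in shRRM2 and 87.1, 88.2 and 88.2 CPM in shRRM2/shp16. It was lower in both hairpin groups than in control, at -0.47 ± 0.04 (SE, adjusted p = 3.0e-14) for shRRM2, and did not pass between the hairpin groups (log2 fold change -0.035 ± 0.04, adjusted p = 0.47). GMPS, which aminates xanthosine monophosphate to GMP, was also lower in shRRM2 and in shRRM2/shp16, at -0.44 ± 0.04 and -0.48 ± 0.04 against control. On the AMP side, ADSS, the synthetase found in most tissues, was at 70.2, 67.9 and 70.5 CPM in control, 60.3, 60.3 and 60.0 CPM in shRRM2 and 91.5, 93.6 and 96.9 CPM in shRRM2/shp16. It was lowest in shRRM2 and highest in shRRM2/shp16 with no overlap, at -0.21 ± 0.04 (SE, adjusted p = 4.7e-05) against control for shRRM2 and 0.43 ± 0.04 (SE, adjusted p = 5.2e-13) against control for both hairpins. ADSSL1, the muscle form, was low, at 3.31, 3.97 and 3.16 CPM in control, 5.33, 4.44 and 5.39 CPM in shRRM2 and 7.29, 7.62 and 7.04 CPM in shRRM2/shp16. It was higher in each step of this order, with log2 fold changes of 0.54 ± 0.14 (SE, adjusted p = 0.0012) and 0.54 ± 0.12 (SE, adjusted p = 0.00027). In all, 9 of the 11 purine genes were lower and 1 was higher in shRRM2 against control, 6 were higher and 1 was lower in shRRM2/shp16 against shRRM2, and 9 were lower and 2 were higher in shRRM2/shp16 against control. Of all genes, 31.8% were lower and 29.0% higher in the first comparison and 31.9% higher and 29.1% lower in the second. In the third 32.4% were lower and 30.0% higher.

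The pyrimidine genes were mostly lower with RRM2 knockdown, and DTYMK had the largest fall among the 33 tested members. DTYMK, thymidylate kinase, which phosphorylates dTMP on the way to dTTP, was at 68.2, 72.8 and 68.7 CPM in control, 30.3, 33.6 and 29.0 CPM in shRRM2 and 36.5, 38.9 and 37.5 CPM in shRRM2/shp16. The groups did not overlap and shRRM2 was lowest. Its log2 fold change was -1.17 ± 0.05 (SE, adjusted p = 3.6e-23) in shRRM2 against control, 0.28 ± 0.06 (SE, adjusted p = 4.3e-05) in shRRM2/shp16 against shRRM2 and -0.89 ± 0.05 (SE, adjusted p = 4.3e-20) in shRRM2/shp16 against control. CAD, the large protein that carries the opening reactions of pyrimidine synthesis, was at 145, 135 and 141 CPM in control, 85.7, 85.0 and 89.8 CPM in shRRM2 and 97.3, 93.9 and 91.8 CPM in shRRM2/shp16. CAD had a log2 fold change of -0.69 ± 0.04 (SE, adjusted p = 7.1e-20) in shRRM2 against control, and the small rise in shRRM2/shp16 against shRRM2 was 0.12 ± 0.04 (SE, adjusted p = 0.0092). Without shRRM2/shp16 replicate a that rise no longer passed (adjusted p = 0.0544).

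DHODH, the mitochondrial enzyme of the route, was low in all groups, at 7.79, 6.60 and 8.16 CPM in control, 5.08, 4.44 and 6.48 CPM in shRRM2 and 4.97, 6.27 and 6.23 CPM in shRRM2/shp16. The hairpin groups overlapped each other and lay below control. Its log2 fold change was -0.49 ± 0.13 (SE, adjusted p = 0.0012) for shRRM2 and -0.37 ± 0.13 (SE, adjusted p = 0.0098) for both hairpins against control, and the latter was lost without shRRM2/shp16 replicate a and in each of the 3 fits of RPKM values that tested DHODH (adjusted p 0.0982 to 0.149). UMPS, which makes UMP, was -0.55 ± 0.07 and -0.47 ± 0.07 against control in shRRM2 and in shRRM2/shp16, and the hairpin groups did not differ past the threshold (log2 fold change 0.079 ± 0.08, adjusted p = 0.38).

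The CTP synthetases, which aminate UTP, differed from each other. CTPS1 was at 130.4 to 135 CPM in control, 95.9 to 102 in shRRM2 and 92.1 to 99.4 in shRRM2/shp16, at -0.43 ± 0.04 and -0.47 ± 0.04 against control on the log2 scale. CTPS2 was at 24.8, 26.8 and 27.1 CPM in control, 22.5, 23.3 and 22.8 CPM in shRRM2 and 25.1, 27.0 and 26.4 CPM in shRRM2/shp16. It was lowest in shRRM2 and overlapped between control and shRRM2/shp16, with -0.19 ± 0.06 (SE, adjusted p = 0.0093) in shRRM2 against control and 0.0048 ± 0.06 (SE, adjusted p = 0.95) in shRRM2/shp16 against control. DCTD, which deaminates dCMP to supply thymidylate synthesis, was 0.11 ± 0.04 (SE, adjusted p = 0.015) in shRRM2 against control and -0.19 ± 0.04 (SE, adjusted p = 8.8e-05) in shRRM2/shp16 against shRRM2. The first of these was lost without control replicate a, without shRRM2 replicate b, or with no filter on low counts (adjusted p 0.0623 to 0.227). Of the 7 pyrimidine genes, 6 were lower and 1 higher in shRRM2 against control, 3 were higher and 1 lower in shRRM2/shp16 against shRRM2, and 5 were lower in shRRM2/shp16 against control. The shares of all genes were 31.8% lower and 29.0% higher, 31.9% higher and 29.1% lower, and 32.4% lower in the same order. Between the hairpin groups the pyrimidine shares were 42.9% higher and 14.3% lower.

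**Figure D2:**
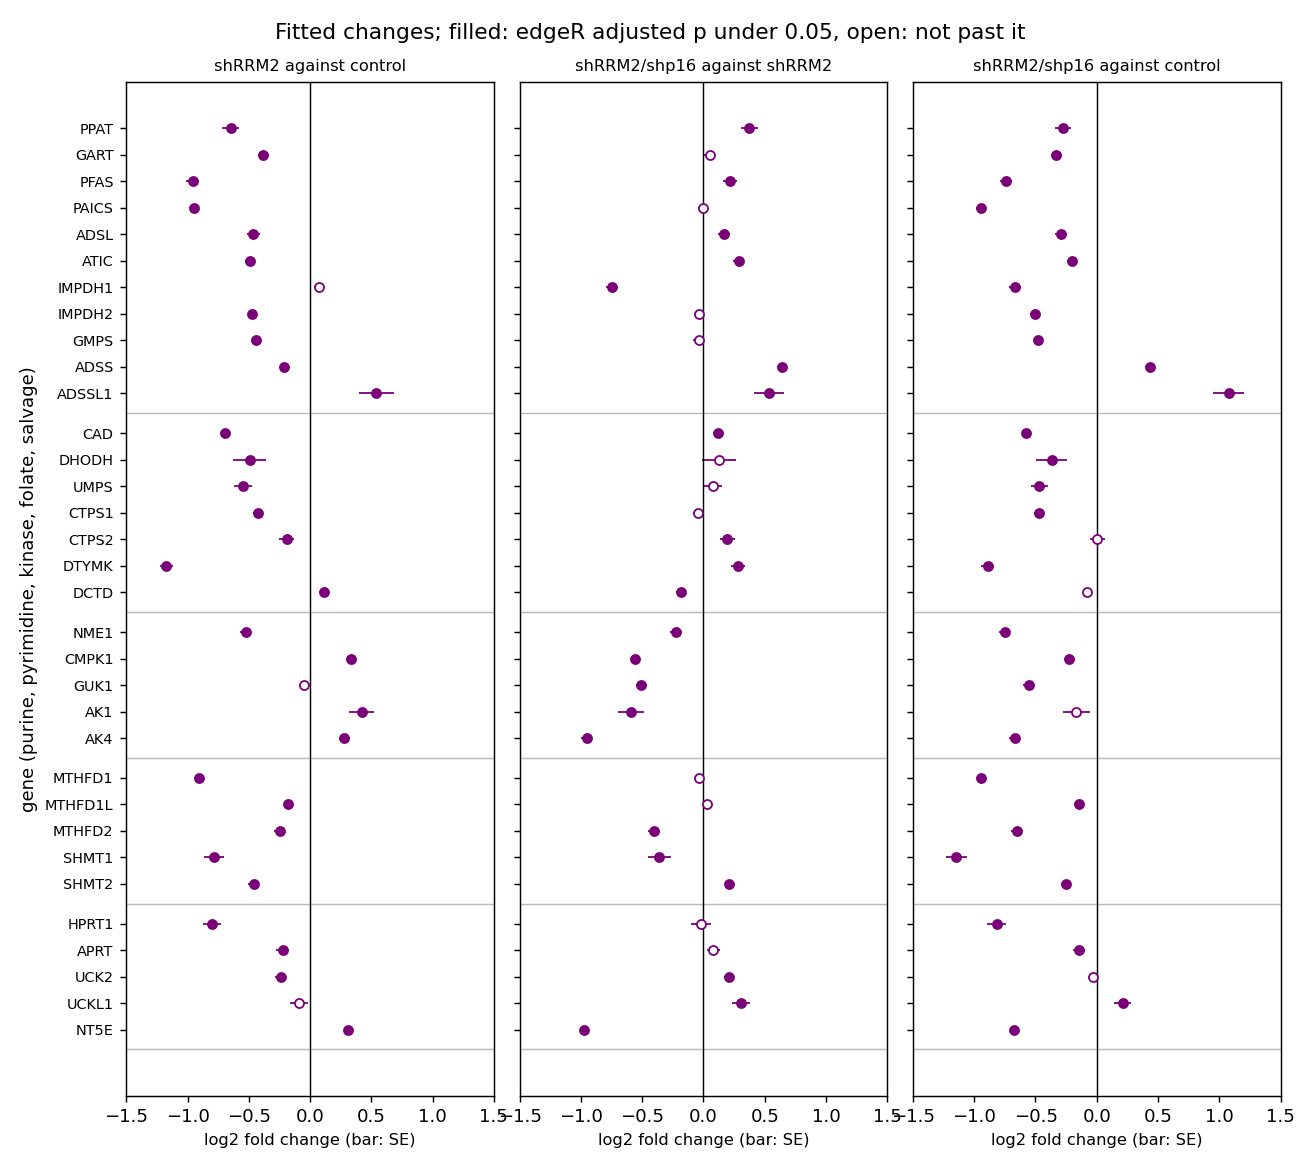
Fitted log2 fold change (x axis) of each of 33 enzyme genes (y axis, by step) in the 3 comparisons, with bars of 1 SE from the edgeR fit. Filled points passed an adjusted p of 0.05 and open points did not. The kinases lie right of 0 or near it in the left panel, except NME1, and left of 0 in the middle panel.

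The nucleotide kinases pass phosphate to nucleoside mono- and diphosphates. Of the 5 tested, 3 were higher and 1 was lower in shRRM2 against control, and 5 were lower in shRRM2/shp16 against shRRM2. Of all genes, 29.0% were higher and 31.8% lower in the first comparison, and 29.1% were lower in the second. AK4, a mitochondrial adenylate kinase, was at 78.5, 88.4 and 84.6 CPM in control, 108, 98.3 and 98.6 CPM in shRRM2 and 53.0, 50.9 and 53.6 CPM in shRRM2/shp16. Every shRRM2 library was above control and every shRRM2/shp16 library below it. The log2 fold change of AK4 was 0.28 ± 0.04 (SE, adjusted p = 4.1e-07) in shRRM2 against control and -0.95 ± 0.05 (SE, adjusted p = 5.2e-22) in shRRM2/shp16 against shRRM2. CMPK1, the UMP and CMP kinase, was at 81.9, 91.5 and 89.5 CPM in control, 111, 106 and 114 CPM in shRRM2 and 72.9, 75.6 and 76.0 CPM in shRRM2/shp16. It had the same order without overlap, at 0.34 ± 0.04 (SE, adjusted p = 2.5e-09) for shRRM2 against control and -0.56 ± 0.04 (SE, adjusted p = 1.7e-15) between the hairpin groups.

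AK1, a cytosolic adenylate kinase, was low in the counts, at 8.93, 8.11 and 8.76 CPM in control, 13.1, 11.2 and 10.4 CPM in shRRM2 and 8.87, 7.17 and 6.99 CPM in shRRM2/shp16. Its shRRM2 libraries were above all others and control overlapped shRRM2/shp16. It was not low in the authors' deposited FPKM, at 73.5 in shRRM2 and 44.6 in shRRM2/shp16, where AK4 was at 16.9 and 9.27. The source of this difference was not tested. AK1 was 0.42 ± 0.10 (SE, adjusted p = 0.00053) in shRRM2 against control and -0.59 ± 0.11 (SE, adjusted p = 6.1e-06) in shRRM2/shp16 against shRRM2. It was -0.17 ± 0.11 (SE, adjusted p = 0.18) in shRRM2/shp16 against control, which passed only without shRRM2/shp16 replicate a (adjusted p = 0.0464). GUK1, guanylate kinase, was at 124, 118 and 120.3 CPM in control, 117, 126 and 107 CPM in shRRM2 and 83.1, 83.7 and 79.8 CPM in shRRM2/shp16. Control and shRRM2 overlapped, and all shRRM2/shp16 libraries were lower, at -0.51 ± 0.04 (SE, adjusted p = 8.5e-14) against shRRM2. GUK1 in shRRM2 against control did not pass (log2 fold change -0.05 ± 0.04, adjusted p = 0.3) except without shRRM2 replicate b (adjusted p = 0.036).

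NME1, a nucleoside diphosphate kinase, was the exception, at 82.6, 76.5 and 80.8 CPM in control, 54.7, 57.5 and 54.7 CPM in shRRM2 and 45.8, 49.4 and 47.4 CPM in shRRM2/shp16. It was lower in each step of this order without overlap, with log2 fold changes of -0.53 ± 0.04 (SE, adjusted p = 9.7e-14) and -0.23 ± 0.05 (SE, adjusted p = 7.5e-05). The listed identifier of NME2 held 0 counts in all 9 libraries. That identifier is the NME1-NME2 readthrough gene in GENCODE release 29 and overlaps NME1 and NME2 on the same strand, and the identifier that GENCODE calls NME2 held 22 to 33 counts per library. The count files tally ambiguous reads apart from the genes, so the level of NME2 cannot be read from these counts. Reads of NME1 that overlap the readthrough gene may be missing in the same way. From the counts NME1 was at 16.2 RPKM in shRRM2 and 13.8 in shRRM2/shp16. In the authors' deposited FPKM it was at 119.6 and 103. The source of this difference was not tested.

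**Figure D3:**
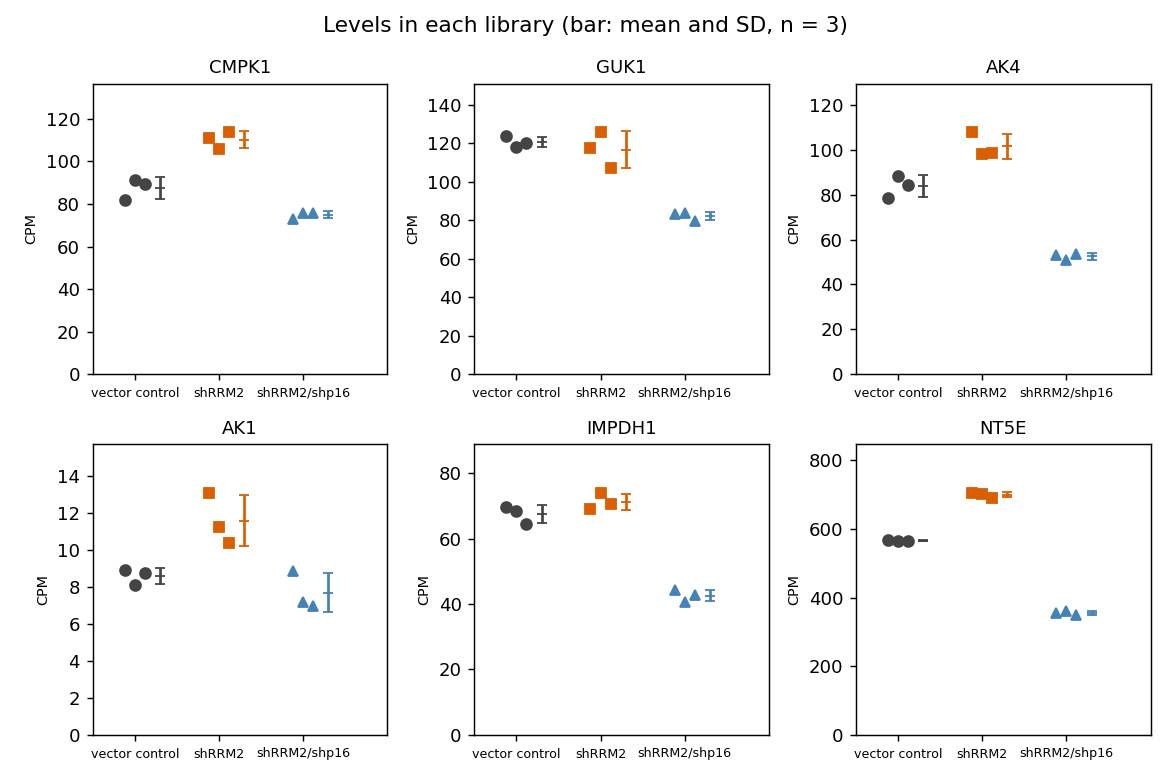
CPM (y axis, from 0) of CMPK1, GUK1, AK4, AK1, IMPDH1 and NT5E in each library of the 3 groups (x axis), with mean and SD over 3 libraries beside the points. In each panel the shRRM2/shp16 libraries lie below the shRRM2 libraries, and in CMPK1, AK4, AK1 and NT5E the shRRM2 libraries lie above control.

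The 5 folate genes were all lower than control in both hairpin groups, where 31.8% (shRRM2) and 32.4% (shRRM2/shp16) of all genes were lower. MTHFD1, the cytosolic enzyme of several activities that makes formyl-folate for purine rings, was at 131, 127 and 134 CPM in control, 66.4, 72.2 and 69.7 CPM in shRRM2 and 67.6, 69.0 and 66.4 CPM in shRRM2/shp16. Both hairpin groups were well below control and overlapped each other. MTHFD1 was -0.91 ± 0.04 (SE, adjusted p = 1.4e-23) in shRRM2 against control, -0.037 ± 0.04 (SE, adjusted p = 0.46) in shRRM2/shp16 against shRRM2 and -0.95 ± 0.04 (SE, adjusted p = 8.7e-25) in shRRM2/shp16 against control. SHMT1, the cytosolic serine hydroxymethyltransferase, was at 20.2, 19.6 and 18.9 CPM in control, 12.1, 11.0 and 11.1 CPM in shRRM2 and 9.45, 8.81 and 8.28 CPM in shRRM2/shp16. It was lower in each step of that order without overlap, at -0.78 ± 0.08 (SE, adjusted p = 2.5e-11) and -0.36 ± 0.09 (SE, adjusted p = 0.0009). Its log2 fold change of -1.15 ± 0.08 (SE, adjusted p = 3.2e-16) in shRRM2/shp16 against control was the lowest of the 33 members.

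SHMT2, the mitochondrial form, was at 106, 98.1 and 95.7 CPM in control, 71.5, 73.8 and 73.1 CPM in shRRM2 and 88.2, 83.6 and 80.9 CPM in shRRM2/shp16. It was higher in shRRM2/shp16 than in shRRM2, with a log2 fold change of 0.21 ± 0.04 (SE, adjusted p = 5.3e-05). In shRRM2 against control it was -0.46 ± 0.04 (SE, adjusted p = 1.2e-12). MTHFD2, the mitochondrial dehydrogenase of dividing cells, was at 74.2, 77.1 and 74.5 CPM in control, 64.6, 60.6 and 64.7 CPM in shRRM2 and 50.6, 46.0 and 47.2 CPM in shRRM2/shp16. It was lower in each step of that order, with log2 fold changes of -0.25 ± 0.04 (SE, adjusted p = 5.3e-06) and -0.40 ± 0.05 (SE, adjusted p = 6.7e-10). MTHFD1L, which releases formate from mitochondria, had the smallest change of the 5 genes in shRRM2 against control, at 124 to 128 CPM in control and 108 to 114 CPM in shRRM2 (log2 fold change -0.18 ± 0.04, adjusted p = 3.0e-05). With both hairpins against control MTHFD1L was -0.15 ± 0.04 (SE, adjusted p = 0.00032), and tests of the RPKM values in place of counts ended that call (adjusted p 0.176 to 0.285).

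Among the salvage and breakdown genes, HPRT1 fell and NT5E rose in shRRM2 against control, and both were lower than control with both hairpins. HPRT1, which recovers hypoxanthine and guanine, was at 23.6, 25.8 and 27.3 CPM in control, 15.1, 14.7 and 14.1 CPM in shRRM2 and 13.2, 14.9 and 15.2 CPM in shRRM2/shp16. Both hairpin groups were below control and overlapped each other. HPRT1 was -0.80 ± 0.08 (SE, adjusted p = 2.1e-12) in shRRM2 against control, -0.017 ± 0.08 (SE, adjusted p = 0.87) between the hairpin groups and -0.82 ± 0.07 (SE, adjusted p = 3.6e-13) in shRRM2/shp16 against control. NT5E, the cell-surface enzyme CD73 that removes phosphate from extracellular AMP, was at 568, 566 and 565 CPM in control, 706, 704 and 692 CPM in shRRM2 and 356, 360.2 and 349 CPM in shRRM2/shp16. It was highest in shRRM2 and lowest in shRRM2/shp16 with no overlap. NT5E was 0.31 ± 0.03 (SE, adjusted p = 4.8e-14) in shRRM2 against control, -0.98 ± 0.03 (SE, adjusted p = 1.1e-31) in shRRM2/shp16 against shRRM2 and -0.67 ± 0.03 (SE, adjusted p = 1.1e-25) in shRRM2/shp16 against control.

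APRT, which recovers adenine, was at 49.3 to 51.9 CPM in control, 41.3 to 45.3 in shRRM2 and 43.2 to 49.4 in shRRM2/shp16. It was -0.22 ± 0.05 (SE, adjusted p = 0.00027) in shRRM2 against control. With both hairpins APRT was -0.14 ± 0.05 (SE, adjusted p = 0.012) against control although the groups overlapped, and that call was lost without control replicate a, shRRM2/shp16 replicate b or shRRM2/shp16 replicate c, and on RPKM values (adjusted p 0.0615 to 0.578). UCK2, a uridine and cytidine kinase, was at 74.3, 75.6 and 74.3 CPM in control, 65.4, 59.9 and 64.6 CPM in shRRM2 and 75.5, 71.1 and 73.0 CPM in shRRM2/shp16. It was lowest in shRRM2, at -0.24 ± 0.04 (SE, adjusted p = 7.0e-06) against control, and overlapped between control and shRRM2/shp16 (log2 fold change -0.031 ± 0.04, adjusted p = 0.54). UCKL1, a related protein, did not pass in shRRM2 against control (log2 fold change -0.093 ± 0.07, adjusted p = 0.28) and was 0.31 ± 0.07 (SE, adjusted p = 0.00033) in shRRM2/shp16 against shRRM2. UCKL1 was 0.21 ± 0.07 (SE, adjusted p = 0.0076) with both hairpins against control, which was lost without control replicate b or without shRRM2/shp16 replicate a (adjusted p 0.0777 to 0.082).

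Ratios between enzymes were taken per library for 9 pairs from reads per base of gene length, with no test run on them. The pairs were of the same or neighbouring steps, except PAICS and PPAT, which act at separate steps of purine synthesis. In 6 pairs no library of any group lay within the range of another group, and in 3 pairs groups overlapped. The like share over other gene pairs was not taken, so these counts have no reference. For single genes, 63.6% to 66.2% of all genes did not overlap between 2 groups. NME1 to NME2 could not be formed because NME2 was at 0 counts. IMPDH2 to IMPDH1 was 2.28 to 2.58 in control, 1.65 to 1.70 in shRRM2 and 2.60 to 2.86 in shRRM2/shp16, so it was lowest in shRRM2. SHMT2 to SHMT1 was 7.55 to 7.91, 8.92 to 10.1 and 14.0 to 14.7 in the same order, so the mitochondrial form took a larger share in each step. MTHFD1L to MTHFD1 was 1.77 to 1.83 in control, 2.94 to 3.06 in shRRM2 and 3.11 to 3.24 in shRRM2/shp16. MTHFD2 to MTHFD1 was 1.07 to 1.17, 1.62 to 1.87 and 1.28 to 1.44, highest in shRRM2. CTPS1 to CTPS2 was 4.90 to 5.52, 4.28 to 4.53 and 3.44 to 3.86, lower in each step. PAICS to PPAT, a pair added after its values were seen, was 6.73 to 8.26 in control, 5.68 to 6.51 in shRRM2 and 4.26 to 5.06 in shRRM2/shp16. These are the 6 pairs without overlap. AK4 to AK1 was 3.10 to 3.84 in control, 2.91 to 3.34 in shRRM2 and 2.10 to 2.70 in shRRM2/shp16, so control and shRRM2 overlapped. In the authors' deposited FPKM, AK1 stood above AK4 in both hairpin groups, so the size of this ratio is uncertain. ADSS to ADSSL1 was 27.0 to 35.2, 17.5 to 21.4 and 19.3 to 21.7, with overlap between the hairpin groups. UCK2 to UCKL1 was 1.34 to 1.67, 1.21 to 1.46 and 1.18 to 1.28, where shRRM2 overlapped both other groups. The size of each ratio depends on the gene lengths used, while its order between groups does not.

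**Figure D4:**
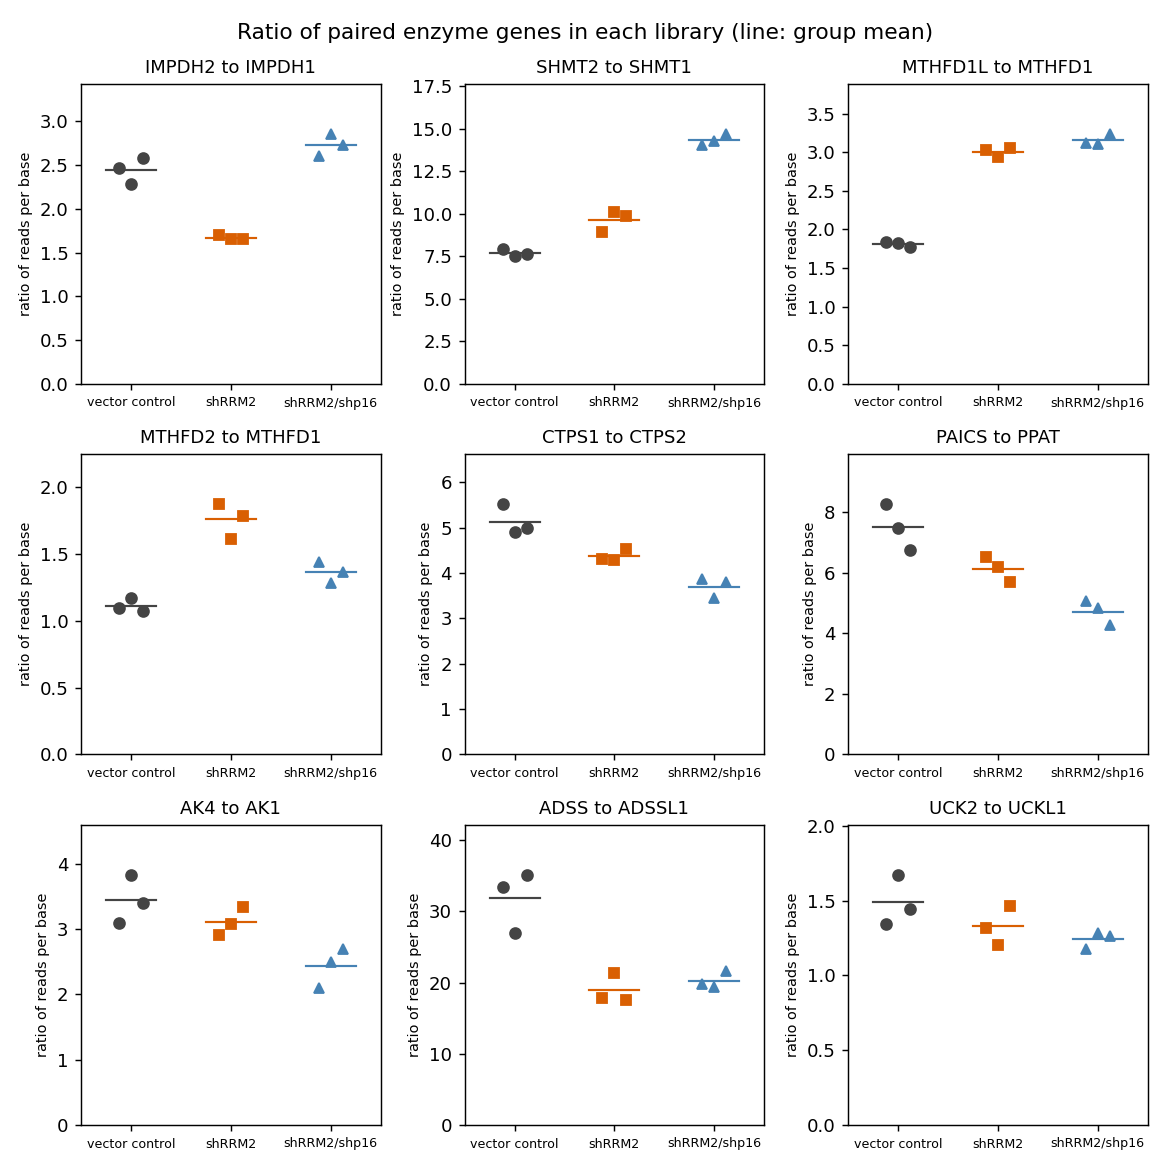
Ratio of reads per base (y axis, from 0) of 9 gene pairs in each library of the 3 groups (x axis), with a line at the group mean. Groups overlap in the panels of ADSS to ADSSL1, AK4 to AK1 and UCK2 to UCKL1 and in no other panel, and SHMT2 to SHMT1 runs from 7.55 to 7.91 in control up to 14.0 to 14.7 in shRRM2/shp16.

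Levels were compared between genes as RPKM, the same scaled count per kilobase of the gene length that the deposited RPKM values imply. That length equals the GENCODE exon length for 0 of the 33 members and is shorter than it for 3, so each level depends on the annotation, and the order by GENCODE length is given beside it. From the counts, NT5E was highest in all 3 groups by either length, at 124.9 ± 0.418 RPKM (SD, n = 3) in control, 154 ± 1.70 in shRRM2 and 78.4 ± 1.22 in shRRM2/shp16. IMPDH2 followed at 44.9 ± 2.13, 32.4 ± 0.779 and 31.7 ± 0.233 RPKM, but by GENCODE length GUK1 stood above it in shRRM2, at 57.7 against 54.8 RPKM. PAICS was the third in control at 41.6 ± 2.28 RPKM and the eighth in shRRM2 at 21.7 ± 0.264 RPKM, while by GENCODE length it was the 11th and the 17th, at 26.8 and 13.9 RPKM. CMPK1 was the third in shRRM2 at 28.7 ± 1.07 RPKM, and the 6th by GENCODE length at 31.4 RPKM. By either length DHODH and ADSSL1 were the lowest in control, at 1.09 ± 0.118 and 0.602 ± 0.0746 RPKM. The authors' deposited FPKM, given for the hairpin groups only, had another order. GUK1 was at 272 in shRRM2 and 184 in shRRM2/shp16, and NT5E at 275 and 145.

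Other genes of the same metabolism, 53 in all with 49 tested, were set beside the members. In shRRM2 against control 29 were lower (59.2%, all genes 31.8%) and 9 higher (18.4%, all genes 29.0%). In shRRM2/shp16 against shRRM2 20 were lower (40.8%, all genes 29.1%) and 21 higher (42.9%, all genes 31.9%), so more were called in both directions. In shRRM2/shp16 against control 28 were lower (57.1%, all genes 32.4%) and 11 higher (22.4%, all genes 30.0%). The lowest in shRRM2 against control were RRM2 itself and TK1, thymidine kinase, at -2.96 and -1.27 ± 0.05 (SE, adjusted p = 4.8e-26). The highest there were RRM2B, the p53-inducible small subunit of ribonucleotide reductase, at 1.15 ± 0.05 (SE, adjusted p = 2.9e-23), and AMPD3, an AMP deaminase, at 0.67. RRM1 and TYMS, of deoxynucleotide and thymidylate synthesis, were at -0.88 and -1.06 in that comparison.

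PRPS1, which makes the activated ribose that PPAT uses, was at 105, 94.5 and 93.7 CPM in control, 82.6, 90.8 and 84.2 CPM in shRRM2 and 29.8, 28.4 and 24.6 CPM in shRRM2/shp16. It was far lower with both hairpins than in the other groups, at -1.64 ± 0.06 (SE, adjusted p = 1.7e-27) against shRRM2 and -1.83 ± 0.05 (SE, adjusted p = 7.3e-30) against control. PRPS2, its paralog, did not pass between the hairpin groups (log2 fold change -0.034 ± 0.06, adjusted p = 0.66). AK5, another adenylate kinase, was the lowest of the 49 between the hairpin groups at -1.93 ± 0.06 (SE, adjusted p = 2.6e-29), and against control at -2.08. The highest between the hairpin groups were RRM2 (1.51) and PSAT1 (log2 fold change 1.27 ± 0.08, adjusted p = 1.7e-17), an enzyme of serine synthesis that feeds the folate carbon units. PSAT1 had been -1.23 ± 0.08 (SE, adjusted p = 6.7e-17) in shRRM2 against control and was 0.036 ± 0.07 (SE, adjusted p = 0.67) in shRRM2/shp16 against control. PHGDH, the opening enzyme of serine synthesis, was -1.12 ± 0.06 in shRRM2 against control and 0.45 ± 0.06 between the hairpin groups. In shRRM2/shp16 against control the highest were MTHFD2L, a mitochondrial folate dehydrogenase, at 1.24, and TYMP, thymidine phosphorylase, at 1.23.

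MYC, a transcription factor known to act on genes of nucleotide synthesis, was at 58.1, 60.5 and 54.6 CPM in control, 34.7, 34.1 and 33.6 CPM in shRRM2 and 60.7, 58.3 and 59.0 CPM in shRRM2/shp16. It was lowest in shRRM2 and overlapped between control and shRRM2/shp16 (log2 fold change 0.037 ± 0.05, adjusted p = 0.49). ATF4, which is known to act on serine and folate genes, was at 162, 159.9 and 157 CPM, 118, 118 and 122 CPM and 192, 179 and 195 CPM in the same order. Their part in the changes of the members was not tested.

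The authors' deposited table, which compares shRRM2/shp16 with shRRM2, marks 9 of the members as significant: ATIC, IMPDH1, ADSS, DTYMK, CMPK1, GUK1, AK1, AK4 and NT5E. All 9 were also called from the counts with the same sign, and 13 more were called from the counts only. In the authors' deposited table NT5E had a log2 fold change of -0.92 and AK4 of -0.86. The sign in the authors' deposited table was opposite to that from the counts for 8 members, of which CAD and CTPS2 were called from the counts. CAD (-0.25) and CTPS2 (-0.090) were negative in the authors' deposited table and not significant there, while the counts gave 0.12 and 0.20. Among the members, 14 overlap a gene on the opposite strand in GENCODE, such as SON for GART, CTC1 for PFAS and ZBTB25 for MTHFD1. The strand setting of the counting was not stated, so reads of such partners may be included.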

How the data were processed

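RNA was sequenced from 9 IMR90 libraries in 3 groups of 3. Total RNA was DNase treated, and stranded libraries with ribosomal RNA removed were run on an Illumina sequencer, per the labels' protocols. The authors deposited 1 file of unnormalised read counts per library, by Ensembl gene. Closing tally lines that name no gene were left out. They hold reads assigned to no counted feature (17.6% to 28.8% of uniquely aligned reads), ambiguous reads (3.74% to 6.02%) and alignments that were not unique (40.3% to 44.9% of all tallied entries). TopHat2 2.0.9, Cufflinks 2.0.2, Cuffdiff and the build GRCh38 are named in the submitters' processing notes, without their role, and the strand setting of the counting is not given in the sources used here. The authors also deposited a table of log2 RPKM values per library, and, per the file headers, FPKM of the shRRM2 and shRRM2/shp16 groups with a log2 fold change between them, its p-value, its q-value and a test score. Calculated back from the counts, its log2 scale is log2(x + 1) with x in reads per base, and the values of shRRM2 replicate c matched its counts within 1% for only 5.85% of 9892 genes, against 100% in the other 8 columns. There were 0 columns of values without a sample.

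The count test was that of edgeR 4.0.16 (R 4.3.3, filterByExpr by group, TMM factors, quasi-likelihood fit of all 9 libraries, 6 residual degrees of freedom), which kept 16561 genes with 99.8% of counts. Tests were two-sided, adjusted by Benjamini-Hochberg over all tested genes of a comparison, with a threshold of 0.05. Standard errors were derived as the log2 fold change over the root of F. CPM used TMM library sizes, and RPKM used the gene lengths implied by the deposited RPKM values. Depth was 15770895 to 24873291 counts, within-group SDs of member CPM had a median of 3.72% of the mean, and counts of amplified reads without molecular identifiers understate counting error. Replicates differed beyond sampling noise, the chi-square over its degrees of freedom being 1.44 to 2.95. The fit was tested on simulated data with 200 changed genes. Replicate letters did not pair the samples. All members are named in the text, as are RRM2, CDKN2A, chosen growth genes and, from 53 other pathway genes, 9 fixed ones (1 of them is not reported here) and the 2 highest and 2 lowest called log2 fold changes of each comparison. The members and lists were chosen with earlier results of these data known. Positions came from GENCODE release 29, which may differ from the authors' annotation. Alternatives were RLE size factors, DESeq2 1.42.0, other filters, the 6 libraries compared, a replicate block, limma 3.58.1 on RPKM, and leaving out each library.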

Additional observations from a re-analysis of the deposited data

How the results depend on the processing

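Of 99 member values over the 3 comparisons, 79 kept their call under every setting run, 20 changed call under at least 1 setting, 11 of these only in fits of RPKM values, and 0 changed direction while called. The settings without a planned place, limma on log2(RPKM + 1) with and without a mean RPKM of at least 1, and limma on log2(RPKM + 0.1) without the mismatching column, were chosen after seeing the data. They replace the planned fit of the log2 RPKM values as deposited, which was not run because of their scale. In shRRM2/shp16 against shRRM2, APRT and MTHFD1L passed in the fits of RPKM values (adjusted p 0.0115 to 0.0475), and DCTD in shRRM2/shp16 against control passed without control replicate a (adjusted p = 0.0247). The cause of the shifts was not tested.

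The number of all genes called in shRRM2 against control was 10079, and 6702 with limma on genes with a mean RPKM of at least 1. The members' median log2 fold change in that comparison was -0.47 with no filter, -0.40 with at least 10 counts in every sample, and -0.28, -0.33, -0.30 and -0.37 with limma on RPKM at pseudocount 1, at 0.1, at 1 with the RPKM minimum, and at 0.1 without the mismatching column. Leaving out 1 library gave -0.43 to -0.38. In shRRM2/shp16 against shRRM2 it was 0.050 with no filter, 0.050 with limma at 0.1 and 0.11 without the mismatching column, and 0.0057 to 0.048 leaving out 1 library. In shRRM2/shp16 against control it was -0.32, -0.36, -0.34 and -0.36 in the same 4 limma fits, and -0.48 to -0.42 leaving out 1 library. The members called stayed within 26 to 31, 20 to 24 and 22 to 29 over the alternatives.

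With limma on RPKM the share of called genes that were higher was 62.5% in shRRM2/shp16 against shRRM2 with the RPKM minimum (52.3% by edgeR), and 59.3% to 59.4% in shRRM2/shp16 against control in the 3 fits without that minimum (48.1%). With the replicate block, 30, 22 and 29 members were called, as without it, and all genes called were 10101, 10134 and 10388. Deviations of same-letter samples correlated at -0.020 to 0.049 over genes, and those of other samples at -0.048 to 0.036. When a group is cut to 2 libraries, its spread is assumed to be that of the other groups. The count files limit NME2, at 0 counts, NME1, which overlaps the readthrough gene, and ADSSL1, AK1 and DHODH, whose SEs were at least 0.10.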
